A study of Mus musculus with 10 samples.

Results

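The mouse mitochondrial genome encodes a small set of RNAs, and the deposited table of normalised read counts holds 35 of the 37 genes annotated on it. They were taken as every row, of 27151 rows in all, whose gene ID maps to a symbol beginning with mt-. The 35 genes are 13 mRNAs, 2 rRNAs and 20 tRNAs, and mt-Tf and mt-Td were not analysed here. The values come from tongues of C57BL/6J mice, all of which had received 4NQO, a chemical carcinogen used to raise lesions of the mouth. One group, of 6 libraries, received SP2509, an inhibitor of the histone demethylase LSD1 (gene Kdm1a), and the other, of 4 libraries, received vehicle. The titles of the treated libraries carry an h after SP2509 that the labels do not explain, and the sources used here give no dose, schedule, age or sex. Nothing in the labels ties the libraries to separate mice, so every p-value measures the spread between these libraries, some of which may be technical.

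Mitochondrial DNA is a circle whose strands are each copied into long RNAs by the polymerase Polrmt, with the initiation factors Tfam and Tfb2m. In most places tRNA genes sit between the others, and cutting out the tRNAs by RNase P at one end and by Elac2 at the other releases the mRNAs and rRNAs. The mRNAs encode core subunits of the respiratory chain and of ATP synthase, the rRNAs build the mitochondrial ribosome, and the tRNAs decode the mRNAs. Most genes lie on one strand, the plus strand of the reference sequence. Here 26 of the 35 genes are annotated on it, and the other 9, mt-Nd6 and 8 tRNAs, on the minus strand. Skeletal muscle, which fills most of the tongue, is a tissue rich in mitochondria.

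Libraries were enriched for poly-A RNA, and mature tRNAs carry no poly-A tail, so a share of reads here is a share of a poly-A library and not of the RNA in the tissue. Strand of origin means the annotated strand of the gene to which a read was assigned, because the sources used here do not state whether counting used the strand. If counting did not use it, a read over a gene was assigned to that gene whichever strand it came from. Minus-strand reads below are therefore reads assigned to minus-strand genes, and the strand that gave them is not known. Reads of overlapping genes on opposite strands, such as the ends of mt-Nd5 and mt-Nd6, cannot then be told apart either. Libraries held 15748571 to 19375555 whole reads in SP2509 and 9180844 to 14768955 in Vehicle. SP2509 replicates 1 and 2 were closer to each other than other libraries were, and so were replicates 4 and 5. The SD of their log2 ratios over genes with 1000 to 5000 reads was 0.112 and 0.115, against 0.207 to 1.0003 in the other 19 pairs within a group. Each close pair was averaged into 1 unit for the means and SDs below, which are over 4 SP2509 units and 4 Vehicle libraries. SP2509 replicates 4 and 5 also stood apart in 6 gland markers, whose summed level spanned 22.3 to 341452 normalised reads in SP2509 and 37.1 to 491 in Vehicle, with replicates 4 and 5 at 330358 and 341452.

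Before the values, 2 sets of sequences show which transcripts the counts refer to. The first set is shown because stretches of the mitochondrial genome also exist as annotated pseudogenes in the nucleus, so that some reads cannot be assigned by sequence. The first 90 bases of mt-Co2 (chrM:7013-7102, plus strand), a subunit of cytochrome c oxidase, and of the pseudogene Gm28661 (chr1:24615476-24615565, minus strand) are the same, base for base. The first 90 bases of mt-Co1 (chrM:5328-5417, plus strand) and of its pseudogene Gm13340 (chr2:22589558-22589647, minus strand) differ at 3 bases, given in capitals. Sequences are GENCODE M21 transcripts on GRCm38, written 5′ to 3′ in the DNA alphabet.
mt-Co2: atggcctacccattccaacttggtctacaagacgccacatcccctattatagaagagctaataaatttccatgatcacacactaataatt
Gm28661: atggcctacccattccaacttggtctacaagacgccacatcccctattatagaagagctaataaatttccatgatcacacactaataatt
mt-Co1: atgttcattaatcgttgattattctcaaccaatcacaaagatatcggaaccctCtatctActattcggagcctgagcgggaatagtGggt
Gm13340: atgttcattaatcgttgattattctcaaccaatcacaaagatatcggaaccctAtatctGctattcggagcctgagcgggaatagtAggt

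The second set holds the 7 tRNAs that passed the test described below. The 6 from the minus strand are the tRNAs for proline (mt-Tp, chrM:15356-15422), glutamate (mt-Te, chrM:14071-14139), cysteine (mt-Tc, chrM:5192-5257), asparagine (mt-Tn, chrM:5089-5159), tyrosine (mt-Ty, chrM:5260-5326) and alanine (mt-Ta, chrM:5018-5086). The plus-strand one is a tRNA for leucine, mt-Tl1 (chrM:2676-2750), which lies between mt-Rnr2 and mt-Nd1 with no base between them. Capitals mark the anticodon.
mt-Tp: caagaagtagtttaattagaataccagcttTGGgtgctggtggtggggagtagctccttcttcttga
mt-Te: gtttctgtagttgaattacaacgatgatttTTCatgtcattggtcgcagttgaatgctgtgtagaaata
mt-Tc: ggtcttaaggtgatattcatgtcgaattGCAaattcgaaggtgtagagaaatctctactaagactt
mt-Tn: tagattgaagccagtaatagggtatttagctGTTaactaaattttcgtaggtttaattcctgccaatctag
mt-Ty: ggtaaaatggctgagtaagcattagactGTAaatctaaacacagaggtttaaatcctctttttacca
mt-Ta: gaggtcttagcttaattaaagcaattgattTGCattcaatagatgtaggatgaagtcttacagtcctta
mt-Tl1: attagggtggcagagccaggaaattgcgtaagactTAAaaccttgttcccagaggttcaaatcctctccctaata

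The mt-Ta, mt-Tn, mt-Tc and mt-Ty genes form 1 cluster, broken by a gap of 32 bases between mt-Tn and mt-Tc, the site at which replication of the light strand starts. The proline tRNA is the first gene copied by minus-strand transcription, and mt-Te is the neighbour of mt-Nd6 on the same strand.

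Mitochondrial genes took a smaller share of the reads in every SP2509 library than in any Vehicle library. The share was 27.6, 27.4, 32.2, 24.0, 24.0 and 28.6% in SP2509 replicates 1 to 6, against 48.5, 52.1, 45.1 and 35.3% in Vehicle replicates 1 to 4. The means were 28.1% ± 3.37 in SP2509 and 45.2% ± 7.24 in Vehicle, and SP2509 replicate 3 and Vehicle replicate 4 were the closest libraries across the groups. Because this is a share, more reads from other genes would lower it too. In bulk tissue that, fewer cells rich in mitochondria and less mitochondrial RNA per cell cannot be told apart. Counting error is small at this depth: the widest 95% Wilson interval of such a share spans 0.0323 percentage points either way, and it covers counting error only.

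The composition of the mitochondrial reads, in contrast to their share, overlapped between the groups for each class. The mRNA class took, of mitochondrial reads, 97.9% ± 0.471 in SP2509 and 97.9% ± 0.271 in Vehicle. The rRNA class took 1.35, 1.36, 1.79, 2.23, 2.31 and 2.37% of mitochondrial reads in SP2509 replicates 1 to 6, against 2.26, 2.02, 1.60 and 1.97% in Vehicle replicates 1 to 4. The rRNA share varied more within SP2509, where replicates 1 and 2 were lowest and replicates 4 to 6 highest, than the group means differed (1.95% ± 0.468 in SP2509 and 1.96% ± 0.273 in Vehicle). The tRNA class took 0.160, 0.160, 0.161, 0.162, 0.159 and 0.169% of these reads in SP2509 replicates 1 to 6, against 0.168, 0.164, 0.173 and 0.189% in Vehicle replicates 1 to 4. The tRNA means were 0.162% ± 0.00422 in SP2509 and 0.174% ± 0.0110 in Vehicle, and of the SP2509 libraries only replicate 6 reached into the Vehicle range. None of the 35 genes had a share of mitochondrial reads that separated the groups (0 of 35).

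**Figure D1:**
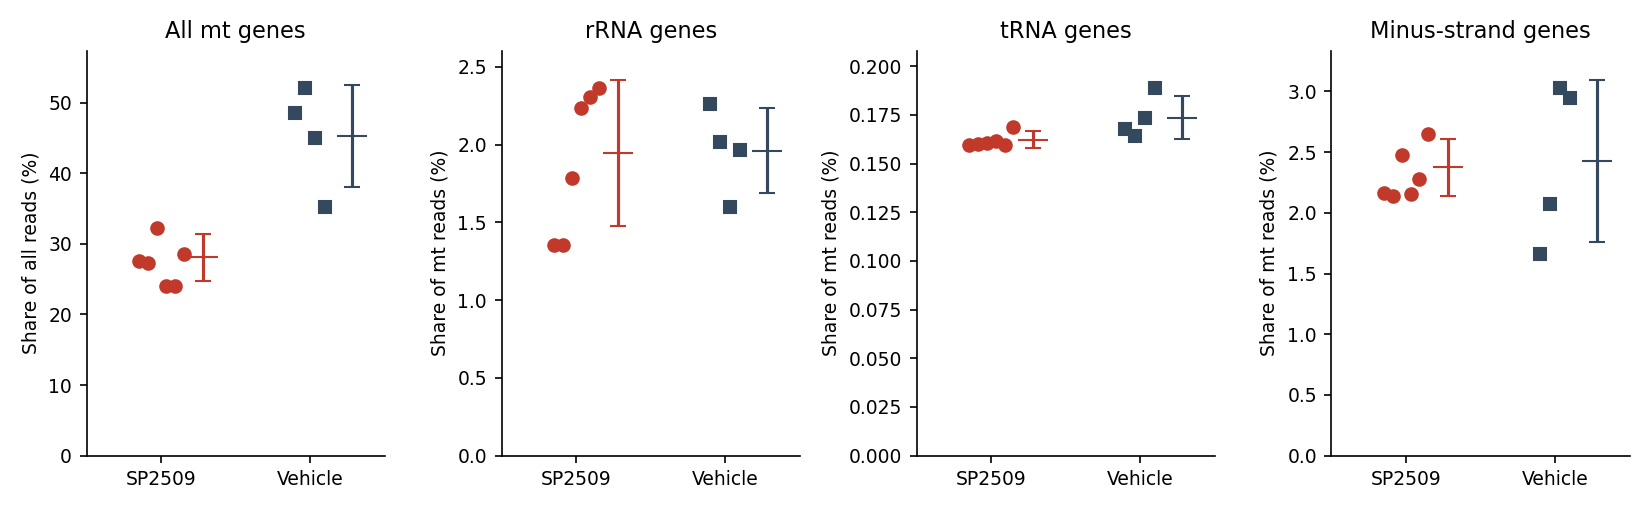
Share of all reads that fell in mitochondrial genes, and shares of the mitochondrial reads taken by rRNAs, tRNAs and minus-strand genes, in percent, with 1 point per library, SP2509 left of Vehicle, and the mean ± SD of 4 SP2509 units and 4 Vehicle libraries. The groups separate in the first panel, at 24.0 to 32.2% in SP2509 against 35.3 to 52.1% in Vehicle, and overlap in the others.

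Minus-strand genes took 2.16, 2.14, 2.48, 2.16, 2.28 and 2.65% of mitochondrial reads in SP2509 replicates 1 to 6, against 1.66, 2.07, 3.03 and 2.95% in Vehicle replicates 1 to 4. The Vehicle libraries were both the lowest and the highest of all, and the means were 2.37% ± 0.233 in SP2509 and 2.43% ± 0.669 in Vehicle. Nearly all of these reads belonged to mt-Nd6, which encodes a membrane subunit of complex I and took 94.4% ± 0.578 in SP2509 and 93.5% ± 1.98 in Vehicle of the minus-strand reads. Within the tRNA class the order of the strands was turned round. Minus-strand genes supplied 81.5% ± 5.39 in SP2509 and 85.1% ± 4.29 in Vehicle of all tRNA reads, and the proline tRNA alone supplied 43.7% in SP2509 and 46.3% in Vehicle. With mt-Tc, mt-Tn and mt-Te it made up 75.6% of tRNA reads in SP2509 and 79.1% in Vehicle.

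Among mRNAs, mt-Co1, the catalytic subunit of cytochrome c oxidase, was the largest item, with 43.1% ± 1.46 of mitochondrial reads in SP2509 and 43.2% ± 1.39 in Vehicle. Together with mt-Cytb, the cytochrome b of complex III, and mt-Nd1 of complex I it accounted for 70.7% of mitochondrial reads in SP2509 and 70.9% in Vehicle. Split by enzyme, complex I genes took 36.6% ± 0.658 in SP2509 and 36.7% ± 1.21 in Vehicle of the mitochondrial mRNA reads. Complex IV genes took 45.6% ± 1.39 in SP2509 and 46.0% ± 1.32 in Vehicle, and mt-Cytb, the one complex III gene, 16.9% ± 0.956 in SP2509 and 16.5% ± 0.593 in Vehicle. The ATP synthase genes mt-Atp6 and mt-Atp8 took 0.806% ± 0.266 in SP2509 and 0.830% ± 0.232 in Vehicle. All of these complex shares overlapped between the groups.

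Per length, the genes spanned several orders of magnitude in both groups. In reads per kilobase of gene per 1000000 mitochondrial reads, the level of mt-Co1 was 279140 ± 9469 in SP2509 and 279463 ± 8972 in Vehicle, and that of mt-Nd6 was 43185 ± 4420 in SP2509 and 43952 ± 12906 in Vehicle. The rRNA levels on this scale were lower: mt-Rnr2 stood at 7152 ± 1415 in SP2509 and 7245 ± 1058 in Vehicle, and mt-Rnr1 at 8522 ± 2567 in SP2509 and 8532 ± 1244 in Vehicle. The 6 mRNAs met in genome order from mt-Co2 to mt-Nd4l ranged over genes from 188 to 11532 in SP2509 and from 152 to 13744 in Vehicle. The 7 other mRNAs ranged from 38613 to 279140 in SP2509 and from 33420 to 279463 in Vehicle. The set of 6 was grouped after these values were seen. The mean per-length level of mt-Co1 was 25.3 times that of mt-Co2 in SP2509 and 20.3 times in Vehicle. The level of mt-Co2 depends on how reads that also match Gm28661 were counted, which no source used here states.

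**Figure D2:**
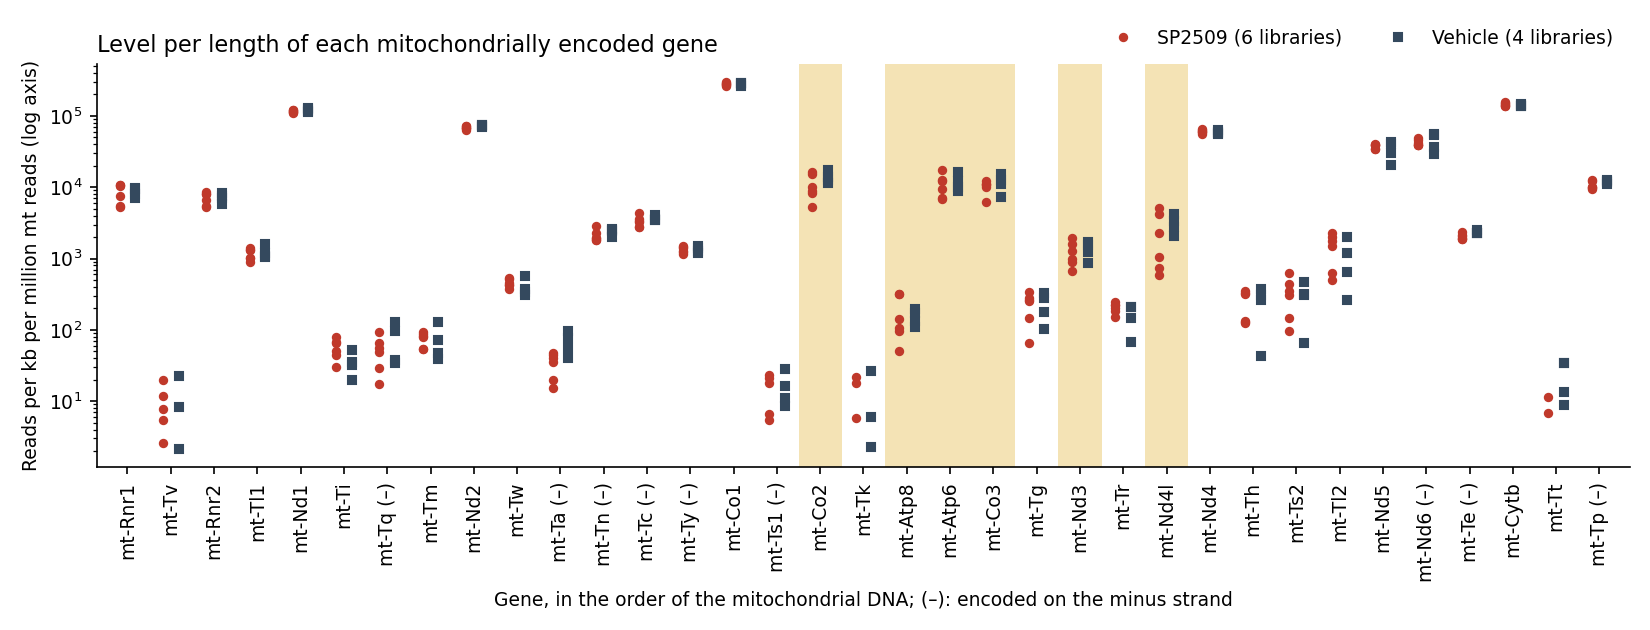
Level of each of the 35 genes in reads per kilobase per 1000000 mitochondrial reads (logarithmic axis), in genome order, with 1 point per library and SP2509 drawn left of Vehicle for each gene. Values of 0 are not drawn, shading marks the 6 mRNAs from mt-Co2 to mt-Nd4l, and these lie below the 7 other mRNAs in both groups.

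The level of each gene was compared between SP2509 and Vehicle with limma on log2(normalised reads + 1) over all 10 libraries. A gene entered with at least 10 normalised reads in at least 4 libraries, and counted as called when its p, adjusted by Benjamini and Hochberg over 17088 genes, was under 0.05. Of the 35 mitochondrial genes 31 entered, and mt-Tv, mt-Ts1, mt-Tk and mt-Tt did not. In this fit 14 of the 31 were lower in SP2509, where the background was 4.15% of tested genes called lower. None was higher (0 of 31, background 4.95%), and 24 of the 31, all with negative fold changes, had an unadjusted p under 0.05, as 12.8% of all tested genes did with a negative fold change. All 31 fold changes were negative, with a median log2 fold change of -1.05, against 0.021 over all tested genes. Under quantile normalization 27 of 31 were negative, mt-Co1, mt-Cytb and mt-Nd1 came to 0 and mt-Nd4 was slightly positive. That method gives genes of equal rank the same value, so a gene with the same rank in every library comes to 0 by construction. edgeR called 14 lower (background 3.38%), 13 of them among the 14 called by limma. DESeq2 called 22 lower (background 8.12%), all 14 included. Neither called any higher, where 5.3% of genes were higher by edgeR and 9.47% by DESeq2. These genes share the change in total mitochondrial share given above, so they are not 31 separate observations.

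The calls depended on how the close pairs were counted. With each pair averaged into 1 unit (4 SP2509 units against 4 Vehicle libraries), limma called 0 mitochondrial genes and 0 genes in all. The lowest adjusted p of a mitochondrial gene was then 0.0718. At an unadjusted p under 0.05, 21 of the 31 genes were lower, against 9.67% of all tested genes (21.3% in either direction). DESeq2 on the summed reads of the pairs called 21 of the 31 lower (background 4.76%), among them all 14, and 0 higher (background 5.04%). edgeR on the same sums called 0. At an unadjusted p under 0.05 it had 21 of the 31 lower, against 8.43% of all tested genes (22.6% in either direction). Without SP2509 replicates 4 and 5 limma called 3 genes lower (0.913% of all tested genes). Leaving out 1 library gave 2 calls without Vehicle replicate 1, 5 without Vehicle replicate 3 and 7 without Vehicle replicate 2. It gave 7, 8, 9, 7 and 7 calls without SP2509 replicates 1, 2, 3, 4 and 5, and 13 and 21 without Vehicle replicate 4 and SP2509 replicate 6. The calls over the whole table moved too: the share of all tested genes called lower was 0.626% without Vehicle replicate 1, 8.71% without SP2509 replicate 6 and 1.79 to 2.55% without any other library. All 31 fold changes stayed negative in each of these fits other than those without Vehicle replicate 3 and without SP2509 replicates 4 and 5, where mt-Tl2 was positive.

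**Figure D3:**
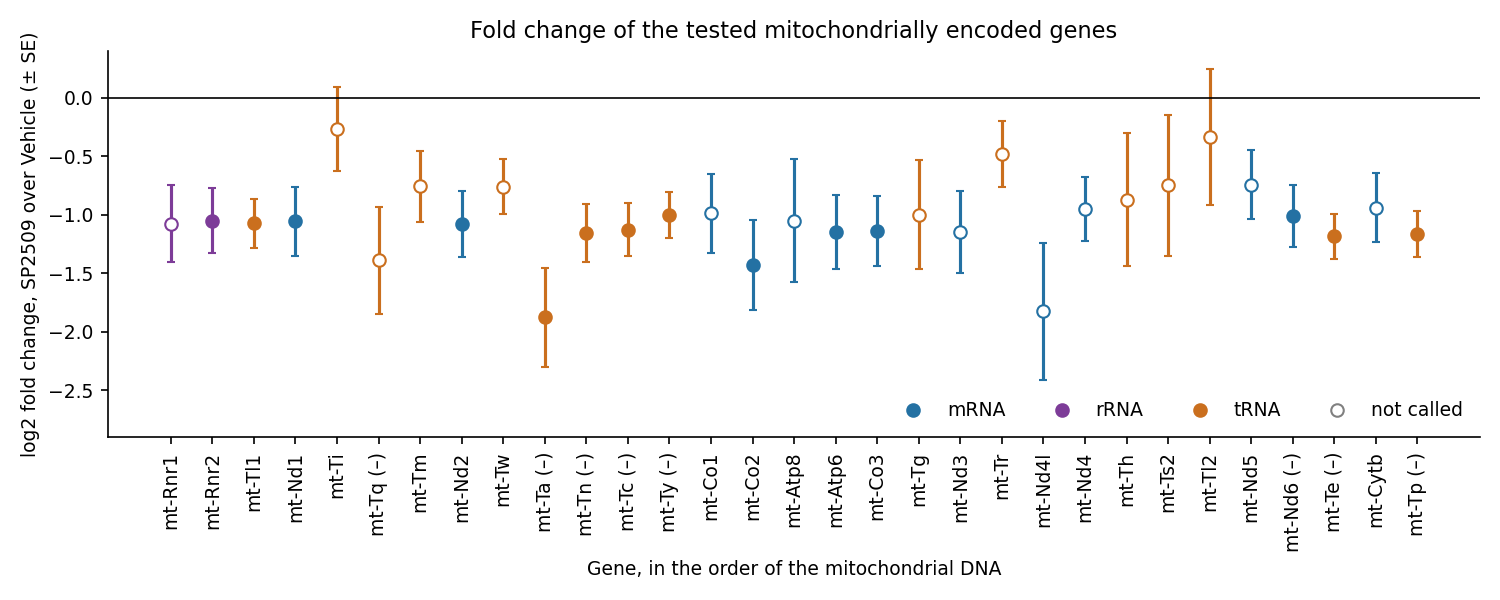
Log2 fold change of SP2509 over Vehicle (limma, 10 libraries) with its standard error for each of the 31 tested mitochondrial genes in genome order, with called genes marked. All 31 values lie below 0, between -1.88 and -0.268, around a median of -1.05. Under quantile normalization, which gives genes of equal rank the same value, 27 of 31 did.

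Of the 2 rRNAs, mt-Rnr2 was called lower in SP2509, and mt-Rnr1, with a fold change of similar size, was not. mt-Rnr2 had 29947 (lowest), 39874 (median) and 60893 (highest) normalised reads in the SP2509 libraries, against 109919, 116230, 69035 and 56055 in Vehicle libraries 1 to 4. For this RNA of the large ribosomal subunit the log2 fold change was -1.05 ± 0.28 (SE), with a limma adjusted p of 0.0378, or 0.149 with the pairs averaged. mt-Rnr1 had 18079 (lowest), 31646 (median) and 45948 (highest) normalised reads in the SP2509 libraries, against 76675, 92160, 49554 and 36070 in Vehicle libraries 1 to 4. This RNA of the small subunit was not called (log2 fold change -1.08, SE 0.33, limma adjusted p = 0.0594). The groups overlapped for both, since Vehicle replicate 4 was below SP2509 replicate 6.

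Of the 13 mRNAs 6, 3 of them in complex I, were called lower, against 4.15% of all tested genes. mt-Nd2 had 237708 (lowest), 246758 (median) and 325331 (highest) normalised reads in the SP2509 libraries, against 645756, 813335, 534228 and 352689 in Vehicle libraries 1 to 4. The groups did not overlap for this gene, a membrane subunit of complex I (log2 fold change -1.08, SE 0.28, limma adjusted p = 0.0359). mt-Nd1 had 363014 (lowest), 387775 (median) and 513972 (highest) normalised reads in the SP2509 libraries, against 1029081, 1231655, 806511 and 527356 in Vehicle libraries 1 to 4. The SP2509 values of mt-Nd1, the complex I subunit at the quinone site, ended just below Vehicle replicate 4 (log2 fold change -1.06, SE 0.29, limma adjusted p = 0.0439). mt-Nd6 had 63174 (lowest), 72789 (median) and 113341 (highest) normalised reads in the SP2509 libraries, against 124910, 199397, 214433 and 130631 in Vehicle libraries 1 to 4. This minus-strand complex I gene did not overlap between the groups either (log2 fold change -1.01, SE 0.26, limma adjusted p = 0.0362). For these 3 genes the adjusted p with the pairs averaged was 0.148, 0.165 and 0.154 in the order given.

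Of the other complex I mRNAs, mt-Nd4 also had every SP2509 library below every Vehicle library, with 278985 to 381178 normalised reads in SP2509 and 382853 to 830663 in Vehicle, yet missed the threshold (log2 fold change -0.95, SE 0.28, limma adjusted p = 0.0508). mt-Nd5 had the smallest change among mRNAs (limma log2 fold change -0.74 ± 0.29 SE, adjusted p = 0.123), with 198492 to 341958 normalised reads in SP2509 and 305530 to 580079 in Vehicle. Vehicle replicate 1 was low in this gene relative to its other mRNAs, with 3.70% of its mitochondrial reads, against 5.58 to 7.82% in the other Vehicle libraries. mt-Nd4l gave 4557, 5366, 3101, 974, 555 and 982 normalised reads in SP2509 replicates 1 to 6, against 8292, 8461, 4579 and 5779 in Vehicle replicates 1 to 4. Here replicates 4 to 6 were far below replicates 1 to 3, and the gene was not called (log2 fold change -1.82, SE 0.59, limma adjusted p = 0.0673). mt-Nd3 was not called either, with 742 to 2585 normalised reads in SP2509 and 2017 to 4417 in Vehicle (log2 fold change -1.15, SE 0.35, limma adjusted p = 0.0594).

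In complex IV, mt-Co2 and mt-Co3 were called lower and mt-Co1 was not. mt-Co3 had 15597 (lowest), 32504 (median) and 39200 (highest) normalised reads in the SP2509 libraries, against 47330, 103713, 63726 and 55470 in Vehicle libraries 1 to 4. The groups of this core subunit did not overlap (log2 fold change -1.14, SE 0.296, limma adjusted p = 0.0359). mt-Co2 had 11368 (lowest), 25346 (median) and 48249 (highest) normalised reads in the SP2509 libraries, against 70345, 98589, 87449 and 36289 in Vehicle libraries 1 to 4. Its SP2509 libraries spread over a wide range and overlapped Vehicle (log2 fold change -1.43, SE 0.39, limma adjusted p = 0.0399). mt-Co1 had 1291980 (lowest), 1613529 (median) and 1991602 (highest) normalised reads in the SP2509 libraries, against 3653048, 4556389, 3199873 and 1929682 in Vehicle libraries 1 to 4. The overlap was slight for mt-Co1, and its adjusted p missed the threshold (log2 fold change -0.99, SE 0.33, limma adjusted p = 0.0793).

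The one complex III gene, mt-Cytb, had 549809 to 766984 normalised reads in SP2509 and 763288 to 1628881 in Vehicle and missed the threshold as well (log2 fold change -0.94, SE 0.29, limma adjusted p = 0.0618). In ATP synthase, mt-Atp6, a subunit of the proton channel, had 14670 to 53914 normalised reads in SP2509 and 52378 to 62377 in Vehicle and was called (log2 fold change -1.15, SE 0.32, limma adjusted p = 0.0433). Its neighbour mt-Atp8, whose reading frame overlaps that of mt-Atp6, rested on few reads, with 32.7 to 300.3 normalised reads in SP2509 and 163 to 298 in Vehicle, and was not called (log2 fold change -1.05, SE 0.52, limma adjusted p = 0.212). With the pairs averaged, the adjusted p was 0.116 for mt-Co3, 0.110 for mt-Co2 and 0.129 for mt-Atp6.

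The lowest adjusted p-values of the whole set belonged to tRNAs, of which 7 of 16 tested were called lower, against 4.15% of all tested genes. mt-Tp had 2230 (lowest), 2608 (median) and 3055 (highest) normalised reads in the SP2509 libraries, against 7011, 8294, 5546 and 3802 in Vehicle libraries 1 to 4. The proline tRNA did not overlap between the groups (log2 fold change -1.16, SE 0.197, limma adjusted p = 0.0118). mt-Te had 406 (lowest), 558 (median) and 642 (highest) normalised reads in the SP2509 libraries, against 1307, 1619, 1178 and 813 in Vehicle libraries 1 to 4. The glutamate tRNA did not overlap either (log2 fold change -1.19, SE 0.19, limma adjusted p = 0.0118). Of the 14 called genes, 2, namely mt-Tp and mt-Te, kept the call whichever single library was left out. With the pairs averaged their adjusted p was 0.0718 and 0.0718.

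From the cluster around the light-strand origin, mt-Ta had the largest fold change of all 31 genes but the fewest reads of the called ones, 68 whole reads over the 6 SP2509 libraries and 99 over the 4 Vehicle libraries. mt-Ta had 3.32 (lowest), 9.42 (median) and 14.8 (highest) normalised reads in the SP2509 libraries, against 31.5, 29.2, 39.4 and 31.4 in Vehicle libraries 1 to 4. It did not overlap between the groups (log2 fold change -1.88, SE 0.43, limma adjusted p = 0.0232). mt-Ty had 278 to 448 normalised reads in SP2509 and 469.6 to 974 in Vehicle, again without overlap (log2 fold change -1.004, SE 0.196, limma adjusted p = 0.0149). mt-Tc, with 655 to 1310 normalised reads in SP2509 and 1265 to 2426 in Vehicle, and mt-Tn, with 407 to 916 normalised reads in SP2509 and 805 to 1467 in Vehicle, were called with a slight overlap. Their limma log2 fold changes were -1.13 and -1.16, with adjusted p-values of 0.0161 and 0.0194. On the plus strand 1 tRNA was called, mt-Tl1, with 212 to 450.4 normalised reads in SP2509 and 558 to 842 in Vehicle (log2 fold change -1.08, SE 0.21, limma adjusted p = 0.0147). With the pairs averaged, the adjusted p of these 5 tRNAs lay between 0.0726 and 0.0939.

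Counted by annotated strand, 7 of 8 tested minus-strand genes and 7 of 23 tested plus-strand genes were called lower. Among tRNAs these counts were 6 of 7 and 1 of 9, and over all tested genes 4.15% were called lower. The difference between the strands was not tested, and the median log2 fold changes were -1.16 on the minus strand and -0.9997 on the plus strand. The plus-strand tRNAs other than mt-Tl1 and mt-Tl2 had few reads, at most 866 in all SP2509 libraries and 578 in all Vehicle libraries (mt-Tw). The tRNAs that were tested and not called were mt-Ti, mt-Tq, mt-Tm, mt-Tw, mt-Tg, mt-Tr, mt-Th, mt-Ts2 and mt-Tl2. Their log2 fold changes lay between -1.39 (mt-Tq, the glutamine tRNA) and -0.27 (mt-Ti, the isoleucine tRNA).

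The 3 tRNAs next to one another between mt-Nd4 and mt-Nd5, mt-Th, mt-Ts2 and mt-Tl2, varied widely among the Vehicle libraries. mt-Tl2, the other leucine tRNA, gave 517, 576, 577, 140.2, 112 and 476 normalised reads in SP2509 replicates 1 to 6, against 154, 471, 1050 and 396 in Vehicle replicates 1 to 4. Vehicle replicate 1 was the lowest Vehicle library for all 3 (24.1 normalised reads of mt-Th and 31.5 of mt-Ts2), as it was in the share of mt-Nd5, the gene that follows them.

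Of the 4 tRNAs under the filter, mt-Tt, the threonine tRNA next to mt-Tp on the opposite strand, was counted 0, 2, 4, 0, 0 and 0 times in SP2509 replicates 1 to 6, against 4, 4, 12 and 12 times in Vehicle replicates 1 to 4. Its normalised values did not overlap, but it was not tested. mt-Tv, mt-Ts1 and mt-Tk had 15, 25 and 14 reads over all SP2509 libraries, against 12, 23 and 12 over all Vehicle libraries. With mt-Tt, 11 of the 35 genes had every SP2509 library below every Vehicle library, where 5.11% of the tested genes did. The reverse, every SP2509 library above every Vehicle library, held for 0 of the 35, where 6.54% of the tested genes did.

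Ratios of 3 gene pairs within a library, which do not depend on the scaling between libraries, were compared by an exact permutation test over libraries (two-sided, 210 regroupings, smallest possible p 0.00476) with adjustment over the 3. The log2 ratio of mt-Nd6 to mt-Nd5, neighbours on opposite strands, was -1.81, -1.84, -1.66, -1.65, -1.56 and -1.52 in SP2509 replicates 1 to 6, against -1.29, -1.53, -1.44 and -1.38 in Vehicle replicates 1 to 4. Every SP2509 library but replicate 6 lay below all Vehicle libraries. The difference of the means was -0.26 (exact permutation p = 0.0143, adjusted p = 0.0429), so the ratio was lower in SP2509. The mt-Nd6 share of mitochondrial reads was 2.24% ± 0.229 in SP2509 and 2.28% ± 0.670 in Vehicle. The mt-Nd5 share was 7.04% ± 0.499 in SP2509 and 6.10% ± 1.86 in Vehicle, and both shares overlapped between the groups. Leaving out any 1 library other than SP2509 replicate 6 or Vehicle replicate 2 (8 of 10 cases) put the adjusted p past 0.05. Vehicle replicate 1, the library low in mt-Nd5, had the highest ratio, and without it the difference was -0.22. With the pairs averaged it was -0.24 (exact permutation p = 0.0571, adjusted p = 0.171, smallest possible p 0.0286), which misses the threshold.

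The other ratios lay along the plus strand. The log2 ratio of mt-Rnr2 to mt-Rnr1, from the same precursor, was 0.78, 0.71, 0.55, 0.35, 0.31 and 0.41 in SP2509 replicates 1 to 6, against 0.52, 0.33, 0.48 and 0.64 in Vehicle replicates 1 to 4. SP2509 replicates 1 and 2 were highest and replicates 4 and 5 lowest, and the difference of the means was 0.027 (exact permutation p = 0.8, adjusted p = 0.986). The log2 ratio of mt-Rnr2 to mt-Nd1, on either side of mt-Tl1, was -3.65, -3.68, -3.399, -3.21, -3.19 and -2.96 in SP2509 replicates 1 to 6, against -3.23, -3.41, -3.55 and -3.23 in Vehicle replicates 1 to 4. Its means differed by 0.0045 (exact permutation p = 0.986, adjusted p = 0.986), less than the spread among libraries of either group.

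**Figure D4:**
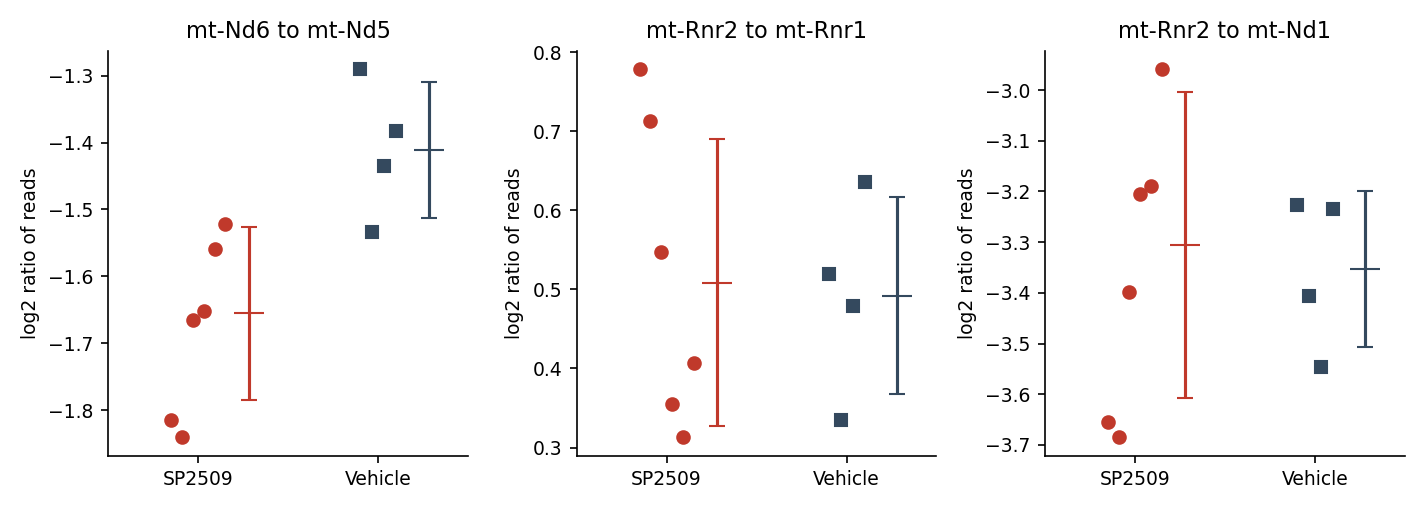
Log2 ratios of mt-Nd6 to mt-Nd5, mt-Rnr2 to mt-Rnr1 and mt-Rnr2 to mt-Nd1 in each library, SP2509 left of Vehicle, with mean ± SD of 4 SP2509 units and 4 Vehicle libraries. The first ratio is -1.84 to -1.52 in SP2509 and -1.53 to -1.29 in Vehicle, and the other ratios overlap widely.

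The sequences shown at the start bear on the 6 mRNAs from mt-Co2 to mt-Nd4l, and on parts of mt-Nd4 and mt-Co1. On chromosome 1 (GRCm38) 7 annotated pseudogenes, Gm28439, Gm10222, Gm28438, Gm28437, Gm10925, Gm28661 and Gm29216, lie next to one another between positions 24611535 and 24616197. They match 681 bases of mt-Co2, 678 of mt-Atp6, 783 of mt-Co3, 294 of mt-Nd4l and 876 of mt-Nd4 without a mismatch. They match 345 bases of mt-Nd3 and 483 of mt-Co1 with 1 mismatch each, and 43 bases of mt-Atp8. No source used here says how reads that fit both places were counted, so the values of these genes and of their copies are uncertain. The search covered annotated transcripts only. Copies of the genes between these mRNAs, such as the tRNA gene mt-Tg between mt-Co3 and mt-Nd3, would therefore be missed.

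The 7 pseudogenes held 1.21, 0.928, 1.17, 1.01, 0.595 and 0.976 reads per 100 mitochondrial reads in SP2509 replicates 1 to 6, against 1.44, 1.54, 1.33 and 1.66 in Vehicle replicates 1 to 4, without overlap. All 7 were called lower in the 10-library limma fit, against 4.15% of all tested genes, with log2 fold changes between -2.01 and -1.39. Since reads may fit both places, these calls are not separate from those of the mitochondrial genes. With the pairs averaged, the limma adjusted p of the 7 pseudogenes was 0.0718 to 0.1099. Gm28661 took 29.4, 33.3, 27.4, 38.6, 11.5 and 25.8% of the reads given to it and to mt-Co2 together in SP2509 replicates 1 to 6, against 30.7, 35.6, 25.4 and 38.1% in Vehicle replicates 1 to 4. The lowest and the highest of these shares belong to SP2509 replicates 5 and 4, which form a close pair by other genes.

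That disagreement ran through the 6 mRNAs. Between the members of a close pair, the absolute log2 difference of the normalised reads was 0.179 to 1.73 in the 6 mRNAs, 0.0034 to 0.102 in the 7 other mRNAs and 0.0152 to 0.0788 in the 2 rRNAs. Annotated copies cover these genes unevenly: mt-Nd4, outside the set of 6, differed by 0.0216 and 0.0047, with 876 of its 1378 bases matched. Inside the set mt-Atp8, with few reads, differed by 1.73 and 1.03, with 43 of its 204 bases matched. Copies outside annotated transcripts were not searched, so more bases of either gene may have a copy. Whether copies account for these differences was not tested. The tested tRNAs, many of them with few reads, spanned 0.0042 to 1.68. Counting the 7 pseudogenes as mitochondrial gave a difference in mitochondrial share, SP2509 minus Vehicle over the 10 libraries, of -18.3 percentage points, against -17.9 without them.

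**Figure D5:**
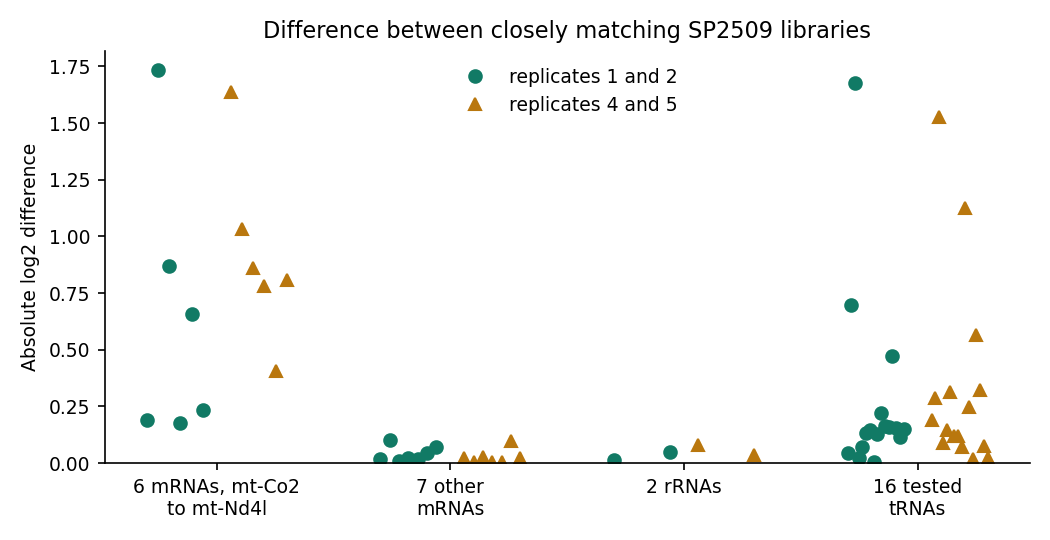
Absolute log2 difference of normalised reads between SP2509 replicates 1 and 2 and between replicates 4 and 5 for each tested mitochondrial gene, by kind of gene. The 6 mRNAs from mt-Co2 to mt-Nd4l differ by up to 1.73 within a close pair, the 7 other mRNAs by at most 0.102.

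The nuclear genes that transcribe and process mitochondrial RNA were compared in the same limma fit. Of 31 tested factors 3 were higher in SP2509 and 0 were lower, where 4.95% and 4.15% of all tested genes were called. At an unadjusted p under 0.05 the counts were 7 and 2, where 15.2% of all tested genes were higher and 12.8% lower. In either direction this made 9 of 31, near the 28% of all tested genes. edgeR called 3 higher (5.3% of all genes) and 0 lower, and DESeq2 4 (9.47%) and 0. The median log2 fold change was 0.16, and 22 of the 31 values were positive. Trmt10c had 212 (lowest), 229 (median) and 240.1 (highest) normalised reads in the SP2509 libraries, against 187, 144, 144 and 145 in Vehicle libraries 1 to 4. Trmt10c, a subunit of mitochondrial RNase P that also methylates tRNAs, was higher (log2 fold change 0.55, SE 0.12, limma adjusted p = 0.0222). Pde12, an exonuclease that shortens mitochondrial poly-A tails, had 118 to 271 normalised reads in SP2509 and 75.2 to 127 in Vehicle and was higher (log2 fold change 0.998, SE 0.24, limma adjusted p = 0.0262). Grsf1, an RNA-binding protein of mitochondrial RNA granules, had 769 to 1422 normalised reads in SP2509 and 439 to 676 in Vehicle and was higher too (log2 fold change 0.66, SE 0.18, limma adjusted p = 0.0402). With the pairs averaged, none of the 3 passed (adjusted p 0.0967, 0.102 and 0.0957).

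The central transcription factors were not called. Polrmt, the RNA polymerase, had 458 to 606 normalised reads in SP2509 and 537 to 716 in Vehicle (log2 fold change -0.26, SE 0.11, limma adjusted p = 0.149). Tfam, which packages mitochondrial DNA and helps to start its transcription, had 285 to 489 normalised reads in SP2509 and 250.3 to 293 in Vehicle (log2 fold change 0.34, SE 0.15, limma adjusted p = 0.156). Lrpprc, which stabilises mitochondrial mRNAs together with Slirp, had 646 to 1245 normalised reads in SP2509 and 686 to 738 in Vehicle (log2 fold change 0.13, SE 0.17, limma adjusted p = 0.665). Of 15 genes that replicate and maintain mitochondrial DNA, 1 was lower and 0 were higher, near the 4.15% and 4.95% of all tested genes. The lower gene was Primpol, a primase that restarts stalled replication, with 50.5 to 96.1 normalised reads in SP2509 and 109 to 141 in Vehicle. Its log2 fold change was -0.77 (SE 0.21, limma adjusted p = 0.0419, 0.110 with the pairs averaged). At an unadjusted p under 0.05 the counts of this list were also 1 and 0, where 12.8% of all tested genes were lower and 15.2% higher. edgeR called 0 (3.38% of all tested genes lower, 5.3% higher), and DESeq2 called 1 lower (8.12% of all tested genes). Of 11 regulators of mitochondrial biogenesis, 0 were called in either direction by limma or edgeR and 1 was higher by DESeq2 (9.47% of all tested genes). At an unadjusted p under 0.05, 1 was higher and 1 lower, where 15.2% and 12.8% of all tested genes were.

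Marker levels moved with the groups in part. The summed level of 12 skeletal muscle markers was 313085 to 883301 normalised reads in SP2509 and 171519 to 381682 in Vehicle, highest in SP2509 replicate 6 and lowest in Vehicle replicate 1, and all 12 had positive fold changes. limma and edgeR called 0 of them, DESeq2 called 4 higher (9.47% of all genes), and 8 were higher at an unadjusted p under 0.05 (15.2% of all genes). The summed level of 8 keratinocyte markers was 50950 to 253507 normalised reads in SP2509 and 88243 to 124845 in Vehicle. limma called 0 of these, edgeR 1 and DESeq2 2, all higher, and 2 were higher at an unadjusted p under 0.05 (15.2% of all genes). With the mean muscle marker level as a covariate, limma called 14 mitochondrial genes lower, 11 of them among the 14 called without it, and 2.57% of all tested genes lower. The summed levels were 799 to 1408 normalised reads in SP2509 and 562 to 1155 in Vehicle for 4 immune markers, 7946 to 9680 normalised reads in SP2509 and 6443 to 8870 in Vehicle for 4 fibroblast markers and 23.6 to 503 normalised reads in SP2509 and 10.7 to 91.6 in Vehicle for 3 adipocyte markers. limma and edgeR called 0 of these 11 markers. DESeq2 called 1 immune marker lower, Ptprc, the pan-leukocyte protein CD45 (limma log2 fold change -0.69, against positive ones for the other 3 immune markers), and 1 adipocyte marker higher, Adipoq. The adipocyte sum was 462 and 503 normalised reads in SP2509 replicates 4 and 5, and 85.7, 89.1, 23.6 and 35.0 in replicates 1, 2, 3 and 6. Of the 6 gland markers 3 were tested, and DESeq2 called all 3 higher (9.47% of all tested genes), limma and edgeR 0. At an unadjusted p under 0.05, 1 immune marker was higher and 1 lower, 1 fibroblast marker was higher and 1 lower, and 1 adipocyte marker was higher. The part of these markers, and of the greater depth of the SP2509 libraries, in the results above was not tested beyond the covariate.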

How the data were processed

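Per the labels, poly-A RNA from tongue was sequenced after random-hexamer priming, and HISAT2, featureCounts and mm10 stand in the submitters' processing notes, with neither version nor role. The deposited signal values are reads per gene divided by 1 factor per library. This was read from the values, since 100% of them lay within 0.01 of a whole multiple of a library's smallest value above 0. In the text they are called normalised reads, and 1 read is worth 0.727 to 0.873 of them in SP2509 and 0.898 to 1.85 in Vehicle. Of 27151 gene IDs 27139 matched a symbol in GENCODE M21 (GRCm38, the build of mm10), and every column was mapped to a sample.

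Groups were compared with limma (3.58.1, R 4.3.3; trend and robust fit) on log2(value + 1), which understates the change of low genes. edgeR (4.0.16) and DESeq2 (1.42.0) were run on the recovered whole reads and called 906 genes higher and 577 lower, and 1618 higher and 1388 lower. The limma fit called 846 genes higher and 709 lower. That split was 2565 and 161 when values were scaled to all reads, 297 and 1442 scaled to reads outside mitochondrial genes, 1288 and 575 with TMM, and 666 and 1060 with quantile normalization. SP2509 replicates 1 and 2, and 4 and 5, were averaged as 1 unit each in means and SDs. Pseudogenes were sought among annotated transcripts with BLAST 2.17.0 (at least 90% identity over 40 bases). The limma fit alone was tried on simulated data, with independent libraries and no close pairs. That trial covers neither the effect of the close pairs nor edgeR, DESeq2 or the permutation test. Tables were made with SciPy 1.17.1, NumPy 2.4.6 and pandas 2.3.3 under Python 3.11.15, and figures with matplotlib 3.10.9.

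The genes named were all mitochondrial genes, the chromosome 1 copies, up to 5 called members with the smallest p from each of 3 nuclear lists, and Polrmt, Tfam and Lrpprc. Members, lists and alternatives were chosen with earlier results of these data known, and the sums over merged pairs for edgeR and DESeq2 after the values were seen.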

Additional observations from a re-analysis of the deposited data

Results flagged for a closer look

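In 86 groups of 4 to 6 libraries, a single library stood far from the rest of its group in 2 cases by Dixon's test at the 95% level, and chance alone gives such a gap in about 1 of 20 groups. The tRNA share of mitochondrial reads was 0.169% in SP2509 replicate 6, against 0.159 to 0.162% in the other SP2509 libraries. mt-Tk, the lysine tRNA, stood at 12.7 normalised reads in Vehicle replicate 3, against 0 to 1.80 in the other Vehicle libraries, and it has 12 reads over all Vehicle libraries.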

How the results depend on the processing

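No mitochondrial gene was called higher under any alternative. The count called lower, 14 with limma, was 22 with DESeq2, 0 with the close pairs averaged, 0 with edgeR on their sums and 3 without SP2509 replicates 4 and 5. It was 2 to 21 with 1 library left out, and the cause of these moves was not tested. Under the other alternatives it lay between 13 and 21. Scaling to all reads or to reads outside mitochondrial genes moved the median log2 fold change of all genes to 0.28 and -0.13, and that of mitochondrial genes to -0.79 and -1.20. Same-numbered libraries of the groups did not deviate together (correlations of -0.132 to 0.155, with 2 of 4 matching their own number best). With the replicate number as a block 16 genes were called lower, and the differences in log2 ratio were -0.33 (mt-Nd6 to mt-Nd5), 0.106 (mt-Rnr2 to mt-Rnr1) and -0.13 (mt-Rnr2 to mt-Nd1). The exact sign-flip test over 4 pairs cannot reach 0.05, and mt-Nd6 to mt-Nd5 was no longer past the threshold. The mt-Nd6 to mt-Nd5 difference was -0.24 with the pairs averaged, -0.2998 without SP2509 replicates 4 and 5 and -0.306 to -0.225 with 1 library left out. The mt-Rnr2 to mt-Rnr1 difference was 0.119 without SP2509 replicates 4 and 5 and -0.026 to 0.075 with 1 library left out. That of mt-Rnr2 to mt-Nd1 was -0.071 without SP2509 replicates 4 and 5 and -0.073 to 0.072 with 1 library left out. mt-Nd4 turned to 0.0086 under quantile normalization, and mt-Tl2 to 0.36 without SP2509 replicates 4 and 5 and 0.11 without Vehicle replicate 3 (-0.81 to 0.11 with 1 library left out). Of 833 single-gene comparisons in all, 664 kept direction and side of the threshold, 115 lost the call, 51 gained it and 3 reversed. Genes with under 100 reads a group, such as mt-Ta, are limited by depth.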
